A study of Mus musculus with 6 samples.

Results

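The genes that coat lipid droplets and release fatty acids from them were followed in bulk RNA-seq of inguinal white adipose tissue (IWAT), the subcutaneous fat pad of the groin. The group was defined by gene symbol and holds 10 of the 55491 genes in the table, namely the coat genes *Plin1*, *Plin2*, *Plin4*, *Plin5*, and *Cidec*, the lipase genes *Pnpla2*, *Lipe*, and *Mgll*, the lipase coactivator *Abhd5*, and the lipase inhibitor *G0s2*. IWAT of 3 *Ebf2E165X/+* mice was compared with IWAT of 3 *Ebf2+/+* mice, with 1 library per mouse. All 6 animals were male C57BL/6J mice, 4 weeks old and on regular chow. *Ebf2E165X/+* mice carry, beside a wild-type allele, a germline knock-in allele of *Ebf2* with the nonsense variant p.E165X. It was made with CRISPR-Cas9 in B6SJLF1 eggs and bred to C57BL/6J, so that it is present in every tissue and not in adipocytes alone. *Ebf2+/+* mice have 2 wild-type alleles. EBF2 is a transcription factor of adipocyte precursors and of brown and beige adipocytes, and the comparison asks which of these genes differ in young fat when 1 allele is truncated.

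Adipocytes store triglycerides in lipid droplets whose surface is covered by perilipins and CIDE proteins. Perilipin 1 shields the droplet in unstimulated cells and holds CGI-58, the product of *Abhd5*, away from adipose triglyceride lipase (ATGL, from *Pnpla2*). After adrenergic stimulation, protein kinase A phosphorylates perilipin 1 and hormone-sensitive lipase (HSL, from *Lipe*), CGI-58 is released, and ATGL, HSL, and monoglyceride lipase (from *Mgll*) remove the fatty acids from triglyceride in turn. The product of *G0s2* inhibits ATGL.

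Each library held between 106820505 and 135039488 counts, and depth did not separate the genotypes. Values are given as CPM, in which a library's counts are divided by its TMM-scaled size. At this depth the lowest count of any of the 10 genes in any library was 441. *Ebf2* itself was measured at 38.3, 41.3, and 37.2 CPM in the *Ebf2+/+* libraries and at 22.8, 22.9, and 21.1 CPM in the *Ebf2E165X/+* libraries. The *Ebf2* levels did not overlap between genotypes, and the log2 fold change was −0.81 ± 0.0757 (SE; edgeR quasi-likelihood test with Benjamini-Hochberg adjustment, adjusted *P* = 0.0596).

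One library stood apart. In the third *Ebf2E165X/+* library, 8 skeletal muscle markers took 3.68% of the counts, against 0.0709% to 0.674% in the other 5 libraries. The most abundant of them over all libraries, *Myh4*, a fast muscle myosin, ranged from 193 to 11440 CPM. In the same library 8 adipocyte markers took 1.34% of the counts, against 2.06% to 2.35% elsewhere. No muscle or adipocyte marker was at 0 in any library. The fold changes of the 10 genes that it moved by more than 1.5 times are given with and without it.

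In wild-type IWAT the 10 genes spanned a wide range of levels. Per kilobase of annotated exon, *Pnpla2* had the highest level, at 497.8 ± 34.6 CPM per kb (SD, *n* = 3), and *Plin5* the lowest, at 5.42 ± 0.358 CPM per kb. The other levels per kb were 384 for *Cidec*, 228 for *Plin1*, 219 for *Plin4*, 153 for *Lipe*, 147 for *Mgll*, 128 for *G0s2*, 83.7 for *Plin2*, and 29.6 for *Abhd5*. In this order the *Ebf2+/+* libraries overlapped between *Plin1* and *Plin4*, between *Lipe* and *Mgll*, between *Mgll* and *G0s2*, and between *G0s2* and *Plin2*, and they did not overlap between the other neighbours. The order assumes reads along the whole transcript. The sources used here name both a 3′ mRNA method and a kit of another maker, and for reads from the 3′ end a division by length would favour short transcripts such as *G0s2*.

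Across the 10 genes, none passed the thresholds of adjusted *P* under 0.05 and a linear fold change above 1.5 by edgeR, by which 3 of 32664 genes tested (0.00918%) were called. By DESeq2, which called 98 of 16078 genes (0.61%), *Plin5* passed and the other 9 did not. At unadjusted *P* under 0.05, 2 of the 10 genes, *Plin5* and *Plin2*, were lower and 0 higher, where 3.09% of all genes tested were lower and 1.68% higher, and 4.2% lower among the 18905 genes that reached 10 counts in all libraries. This count was 1 without the first *Ebf2+/+* or the third *Ebf2E165X/+* library and 4 without the first *Ebf2E165X/+* library, where 2.24%, 3.54%, and 3.31% of all genes tested were lower. In 3 of the 10 genes, *Plin5*, *Pnpla2*, and *Lipe*, all *Ebf2E165X/+* libraries lay below all *Ebf2+/+* libraries, and in 0 of them all lay above. Among all genes tested, 5.75% lay below and 5.09% above in this way, and 6.78% lay below among those 18905 genes. Without the first or the second *Ebf2E165X/+* library the count was 5, but 2 libraries separate from 3 more easily, and 10.5% and 9.46% of all genes tested then lay below. The log2 fold change was below 0 in 9 of the 10 genes (3 with libraries scaled to adipocyte markers), and its median was −0.269, with a range from −1.08 to 0.015. Leaving out the third *Ebf2E165X/+* library gave a median of −0.116, and leaving out the first −0.41. The median over all genes tested was 0.0141, with 47.9% below 0. Fewer adipocytes in a sample and less RNA per adipocyte cannot be told apart in such bulk libraries. The 8 adipocyte markers had a median log2 fold change of −0.279, and of −0.173 without the third *Ebf2E165X/+* library.

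**Figure D1:**
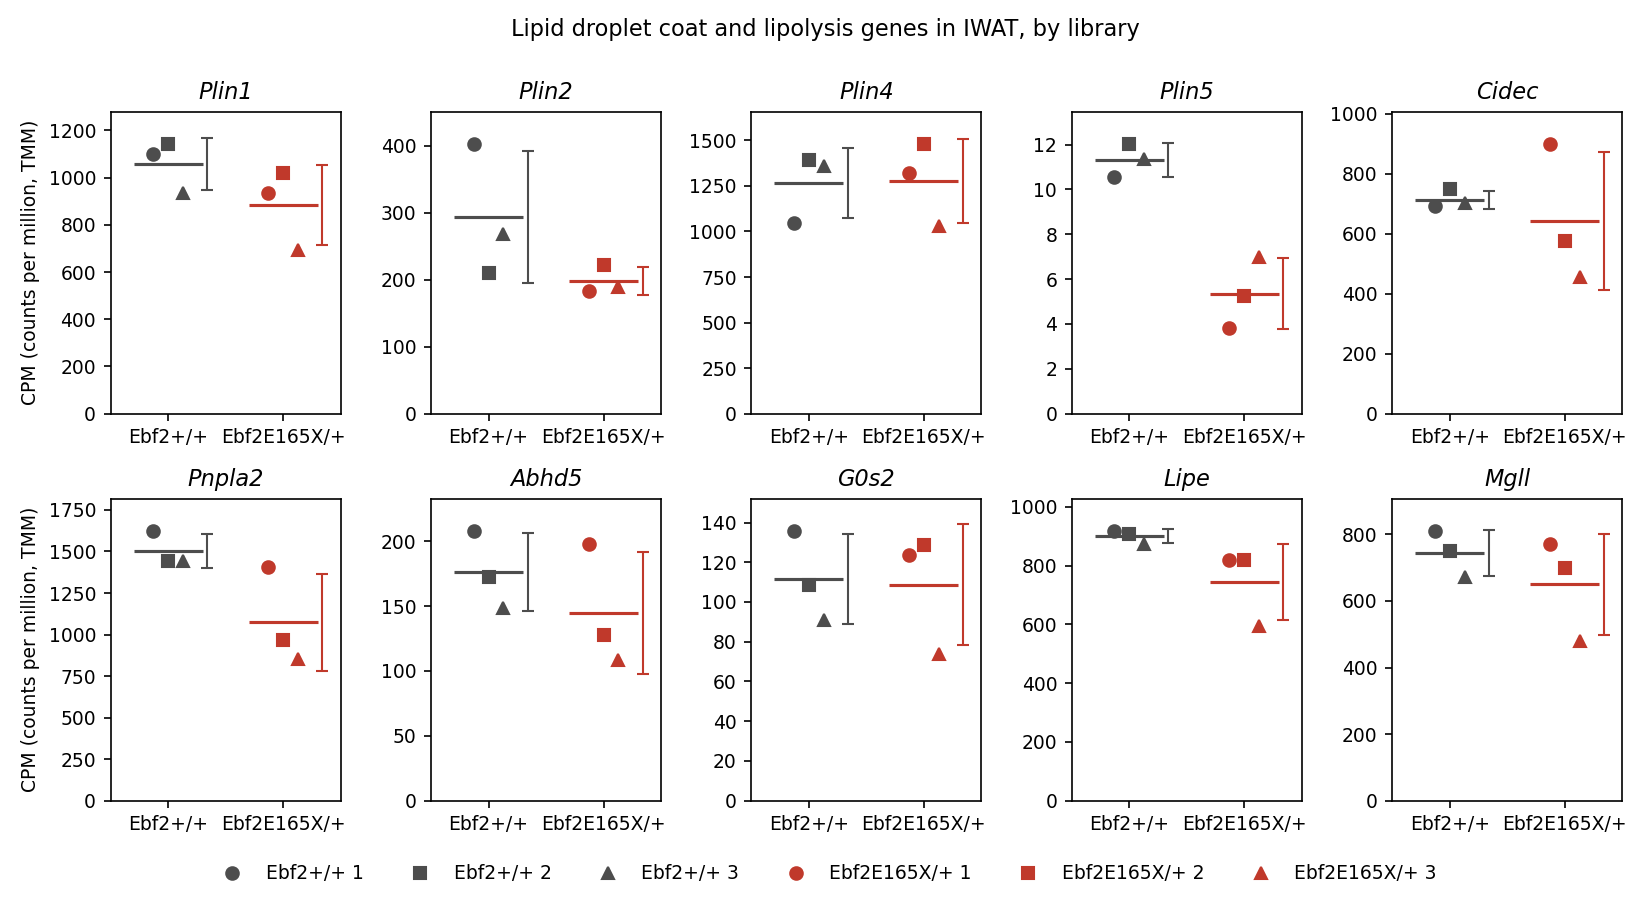
CPM of the 10 genes in each of the 6 libraries, on linear axes that start at 0, with *Ebf2+/+* in grey and *Ebf2E165X/+* in red. Marker shape gives the replicate number, horizontal lines the group means, and error bars 1 SD (*n* = 3). *Plin5*, *Pnpla2*, and *Lipe* are the 3 panels in which all red points lie below all grey points.

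Among the coat genes, *Plin5* differed most between genotypes. *Plin5* encodes the perilipin of tissues that oxidize fat, such as heart, muscle, and brown fat, where it links droplets to mitochondria. It was measured at 10.5, 12.0, and 11.4 CPM in *Ebf2+/+* IWAT and at 3.81, 5.24, and 6.97 CPM in *Ebf2E165X/+* IWAT. All *Ebf2E165X/+* libraries were lower, and the highest of them was the third, the library with the most muscle RNA. The mean in *Ebf2E165X/+* IWAT was 47.2% of that in *Ebf2+/+* IWAT, with a log2 fold change of −1.08 ± 0.213 (SE; edgeR, adjusted *P* = 0.497). Over the alternatives the adjusted *P* ran from 0.000111, by DESeq2, to 0.908, without the first *Ebf2+/+* library. Without the third *Ebf2E165X/+* library the log2 fold change was −1.32 and the adjusted *P* was 0.118 by edgeR. The part of muscle RNA in the third value was not tested.

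*Plin5* lies next to *Plin4* on chromosome 17, on the same strand and 1797 bases from it. *Plin4*, a perilipin abundant in white adipocytes, was measured at 1044, 1391, and 1358 CPM in *Ebf2+/+* and at 1320, 1481, and 1030 CPM in *Ebf2E165X/+* IWAT. The *Plin4* levels overlapped, with both the lowest and the highest value in *Ebf2E165X/+* libraries, and the log2 fold change was 0.015 ± 0.193 (edgeR, adjusted *P* = 0.995, from 0.572 to 1.0 over the alternatives), 0.15 without the third *Ebf2E165X/+* library and −0.12 without the first *Ebf2+/+* library. *Lrg1*, the next gene on the other side of *Plin5*, had a log2 fold change of 0.22 ± 0.182, and *Hdgfl2*, beyond *Plin4*, 0.045 ± 0.0701 (edgeR, adjusted *P* of 0.783 and 0.875). Of these neighbouring genes, *Plin5* alone had levels that did not overlap between genotypes, and the differences between neighbours were not tested against each other.

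Promoter sequence is shown for the neighbours *Plin5* and *Plin4* and for the coat genes *Plin1* and *Cidec*. Each holds a short motif there, as does the coat gene *Plin2*, whose sequence is not shown. RefSeq promoters of GRCm38.p6, 250 bases before to 50 bases after a start site, were found for all 10 genes, as 14 windows. They were searched on both strands for the EBF core, CCCANGGG or CCCTNGGG, for the nuclear receptor half-site AGGTCA, and for the direct repeat of PPAR binding, 2 half-sites AGGNCA with 1 base between them, a match to which can hold AGGTCA. Bases 250 to 51 before a start site are printed on the strand of the gene, with the motif in capitals. *Plin5* is at chr17:56117599-56117798, *Plin4* at chr17:56109833-56110032, *Plin1* at chr7:79732827-79733026, and *Cidec* at chr6:113435811-113436010, all on the minus strand.
Plin5: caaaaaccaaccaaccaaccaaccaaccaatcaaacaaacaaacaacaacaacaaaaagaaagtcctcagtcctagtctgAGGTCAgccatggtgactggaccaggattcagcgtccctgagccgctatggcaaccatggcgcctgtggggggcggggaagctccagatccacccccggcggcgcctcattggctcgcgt
Plin4: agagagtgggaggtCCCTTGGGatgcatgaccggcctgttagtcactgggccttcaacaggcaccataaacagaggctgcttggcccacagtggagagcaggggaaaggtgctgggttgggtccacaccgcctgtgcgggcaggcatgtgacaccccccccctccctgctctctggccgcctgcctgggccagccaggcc
Plin1: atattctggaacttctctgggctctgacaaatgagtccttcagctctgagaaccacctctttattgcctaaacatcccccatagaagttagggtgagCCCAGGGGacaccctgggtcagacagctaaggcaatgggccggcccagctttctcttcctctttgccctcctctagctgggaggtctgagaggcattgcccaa
Cidec: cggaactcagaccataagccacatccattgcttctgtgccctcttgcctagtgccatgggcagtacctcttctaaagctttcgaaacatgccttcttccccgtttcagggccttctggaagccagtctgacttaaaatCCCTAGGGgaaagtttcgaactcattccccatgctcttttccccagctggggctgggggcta

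The EBF core was present in 4 of the 14 windows, from *Plin4*, *Plin1*, and *Cidec*, and in 10.2% of all 32851 windows in the RefSeq table. AGGTCA was present in 4 of the 14 windows, from *Plin5*, *Plin2*, and *Abhd5*, and in 16.3% of all windows, and the direct repeat in 0 of the 14 windows and 0.381% of all windows. The match shown for *Plin5* began 170 bases before the start site, that in *Plin4* 236 bases, that in *Plin1* 153 bases, and the match shown for *Cidec* 112 bases. *Plin5* also had a match after a start site, and *Cidec* a match 187 bases before one. Each may be the site shown, counted from another start site, since a gene can have several windows. A match describes the letters of these windows only.

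*Plin1*, the main perilipin of white adipocytes, was measured at 1101, 1143, and 934.3 CPM in *Ebf2+/+* and at 933.9, 1020, and 693 CPM in *Ebf2E165X/+* IWAT. The *Plin1* levels overlapped through the second *Ebf2E165X/+* library, and the log2 fold change was −0.26 ± 0.18 (edgeR, adjusted *P* = 0.783, from 0.72 to 1.0 over the alternatives), and −0.12 without the third. *Plin2*, the perilipin of small and nascent droplets in many cell types, was measured at 403, 211, and 268 CPM in *Ebf2+/+* and at 183, 221, and 189 CPM in *Ebf2E165X/+* IWAT. The spread of *Plin2* was wide among *Ebf2+/+* libraries, with a coefficient of variation of 33.5%, and narrow among *Ebf2E165X/+* libraries, at 10.5%. Its log2 fold change was −0.57 ± 0.224 (edgeR, adjusted *P* = 0.783, from 0.257 to 1.0 over the alternatives), and −0.29 without the first *Ebf2+/+* library, the highest of the 6.

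*Cidec* encodes the CIDE protein that fuses droplets in white adipocytes. It was measured at 691.6, 747, and 700.5 CPM in *Ebf2+/+* IWAT, the coat gene with the smallest relative spread in that genotype, and at 899, 577, and 454 CPM in *Ebf2E165X/+* IWAT. The first *Ebf2E165X/+* library was above all *Ebf2+/+* libraries and the other 2 were below them. The coefficient of variation was 4.17% in *Ebf2+/+* and 35.8% in *Ebf2E165X/+* libraries, and the log2 fold change was −0.15 ± 0.239 (edgeR, adjusted *P* = 0.88, from 0.78 to 1.0 over the alternatives). Without the third *Ebf2E165X/+* library the log2 fold change of *Cidec* was 0.049, and without the first −0.47.

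*Cidea* and *Plin3* were read beside these genes as the remaining members of the families that adipose tissue expresses. *Cidea*, the CIDE gene of brown and beige adipocytes, was measured at 82.4, 103, and 106 CPM in *Ebf2+/+* and at 7.97, 9.61, and 13.2 CPM in *Ebf2E165X/+* IWAT. *Cidea* fell by 3.24 ± 0.185 on the log2 scale (edgeR, adjusted *P* = 0.00462) and was lower in all 3 *Ebf2E165X/+* libraries. Its adjusted *P* was under 0.05 in all alternatives except without the second *Ebf2+/+* library, where it was 0.0565, and ran from 8.59e-58 to that value. *Plin3*, the perilipin found in most cells, was measured at 41.5 to 55.9 CPM over the 6 libraries and had a log2 fold change of −0.12 ± 0.108 (edgeR, adjusted *P* = 0.783).

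**Figure D2:**
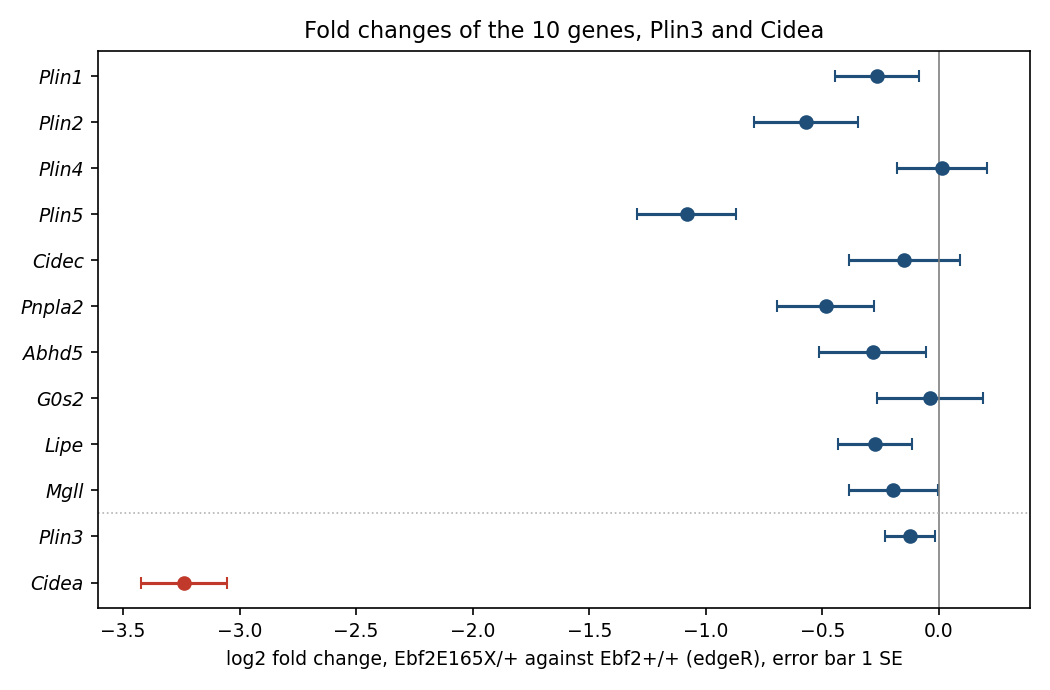
Fitted log2 fold changes, *Ebf2E165X/+* against *Ebf2+/+*, of the 10 genes and, below the dotted line, of *Plin3* and *Cidea*. Points are edgeR estimates from 3 libraries per genotype and bars are 1 SE. *Cidea*, in red, lies at −3.24, the 10 genes between −1.08 and 0.015.

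Among the lipase genes, *Pnpla2*, which encodes the lipase of the first step, was measured at 1624, 1442, and 1444 CPM in *Ebf2+/+* and at 1404, 967, and 851 CPM in *Ebf2E165X/+* IWAT. The *Pnpla2* levels did not overlap, though the first *Ebf2E165X/+* library lay just below the *Ebf2+/+* range and the other 2 far below it. The mean in *Ebf2E165X/+* IWAT was 71.4% of that in *Ebf2+/+* IWAT, with a log2 fold change of −0.49 ± 0.208 (edgeR, adjusted *P* = 0.783, from 0.257 to 1.0 over the alternatives). The log2 fold change of *Pnpla2* was −0.73 without the first *Ebf2E165X/+* library and −0.34 without the third. *Lipe*, for HSL, which acts on diglycerides, was measured at 918, 907, and 874 CPM in *Ebf2+/+* and at 819, 820, and 594 CPM in *Ebf2E165X/+* IWAT. *Lipe* had the smallest relative spread of the 10 genes among *Ebf2+/+* libraries, with a coefficient of variation of 2.55%, and all *Ebf2E165X/+* libraries were lower. Its log2 fold change was −0.27 ± 0.158 (edgeR, adjusted *P* = 0.783, from 0.604 to 1.0 over the alternatives), and −0.13 without the third *Ebf2E165X/+* library. *Mgll*, for the lipase of the last step, was measured at 810.4, 749, and 673 CPM in *Ebf2+/+* and at 771, 697.5, and 481 CPM in *Ebf2E165X/+* IWAT. Only the third *Ebf2E165X/+* library left the *Ebf2+/+* range of *Mgll*, and the log2 fold change was −0.20 ± 0.19, and −0.020 without that library and −0.34 without the first *Ebf2E165X/+* library (edgeR, adjusted *P* = 0.783 for all libraries, from 0.764 to 1.0 over the alternatives).

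For both regulators of ATGL, the range among mice of 1 genotype was wider than the difference between the genotype means. The same held for the lipase genes and for the coat genes other than *Plin5*. The coactivator gene *Abhd5* was measured at 208, 172, and 149 CPM in *Ebf2+/+* and at 198, 128, and 108 CPM in *Ebf2E165X/+* IWAT. The first *Ebf2E165X/+* library lay within the *Ebf2+/+* range of *Abhd5*, and the log2 fold change was −0.29 ± 0.229 (edgeR, adjusted *P* = 0.783, from 0.764 to 1.0 over the alternatives). It was −0.58 without that library, −0.11 without the third *Ebf2E165X/+* library, and −0.16 without the first *Ebf2+/+* library. The inhibitor gene *G0s2* was measured at 136, 108.6, and 90.8 CPM in *Ebf2+/+* and at 124, 129, and 73.9 CPM in *Ebf2E165X/+* IWAT. For *G0s2* 2 of the 3 *Ebf2E165X/+* libraries lay within the *Ebf2+/+* range, and the log2 fold change was −0.038 ± 0.229 (edgeR, adjusted *P* = 0.978, from 0.512 to 1.0 over the alternatives), and 0.18 without the third *Ebf2E165X/+* library, with values above 0 under several of the other settings. *Lamb3* spans *G0s2* on the opposite strand, and *Lipe*, *Mgll*, *Abhd5*, and *Plin4* also overlap other annotated genes. Whether the counting used strand is not given in the sources used here. *Hdgfl2*, the most abundant of these overlapping genes, reached 41.8 CPM beside *Plin4*, and the others at most 5.73 CPM.

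The third *Ebf2E165X/+* library was the lowest of the 6 libraries in 8 of the 10 genes, all but *Plin2* and *Plin5*. The median of the 10 genes, on the log2 scale and relative to the *Ebf2+/+* mean, was −0.617 in that library, −0.22 in the second *Ebf2E165X/+* library, and −0.0208 in the first. In the *Ebf2+/+* libraries it was 0.0873, 0.0131, and −0.0674. The 10 genes together took 0.425% of the counts in the third *Ebf2E165X/+* library and 0.643% to 0.695% in the other 5, and no difference between the group means was detected (two-sided exact permutation test, *P* = 0.6, *n* = 3 per genotype, where the smallest possible *P* is 0.1). The mean of the 8 adipocyte markers on the same scale was −0.677 in the third *Ebf2E165X/+* library, beside −0.613 for the mean of the 10 genes. Without that library 7 of the 10 genes had a log2 fold change below 0.

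**Figure D3:**
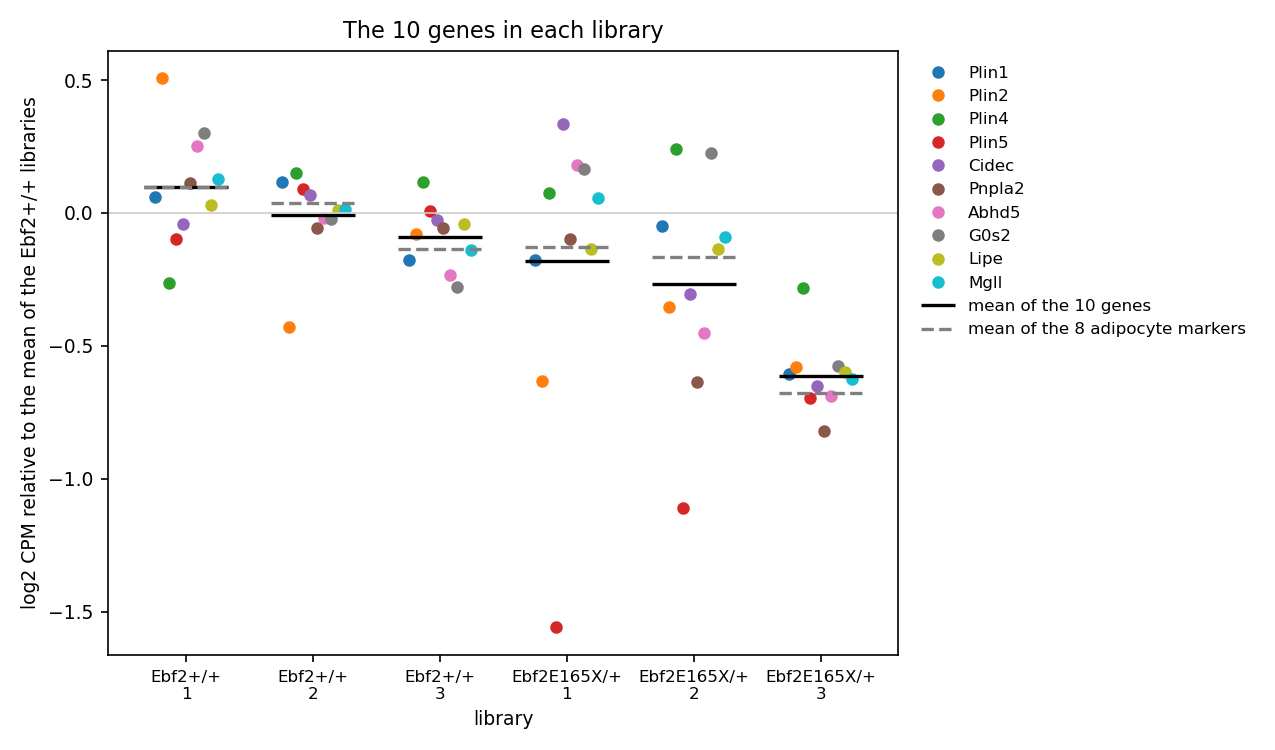
Log2 CPM of the 10 genes in each library relative to the mean of the *Ebf2+/+* libraries. Each colour is a gene, the solid bar the mean of the 10 genes, and the dashed bar the mean of the 8 adipocyte markers. In the third *Ebf2E165X/+* library the bars lie at −0.613 and −0.677, and *Plin5* is the point at −1.56 and −1.11 in the first and second.

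The 10 genes were also scaled to the adipocyte markers, with the geometric mean count of these 8 genes as the library size. Such a scaling cannot tell fewer adipocytes from less marker RNA per adipocyte. It moved the median of all genes tested up by 0.355 on the log2 scale, and the 10 genes with it, to a median of 0.0397. *Plin5*, at −0.69, *Plin2*, at −0.22, and *Pnpla2*, at −0.18, were the 3 genes that stayed below 0, and none of the 10 had an unadjusted *P* under 0.05 (edgeR). The share of all genes at that cut was not counted under this scaling, so the count has no background to be read against. All 10 values were below the shift of all genes, the highest being 0.31 for *Plin4*.

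**Figure D4:**
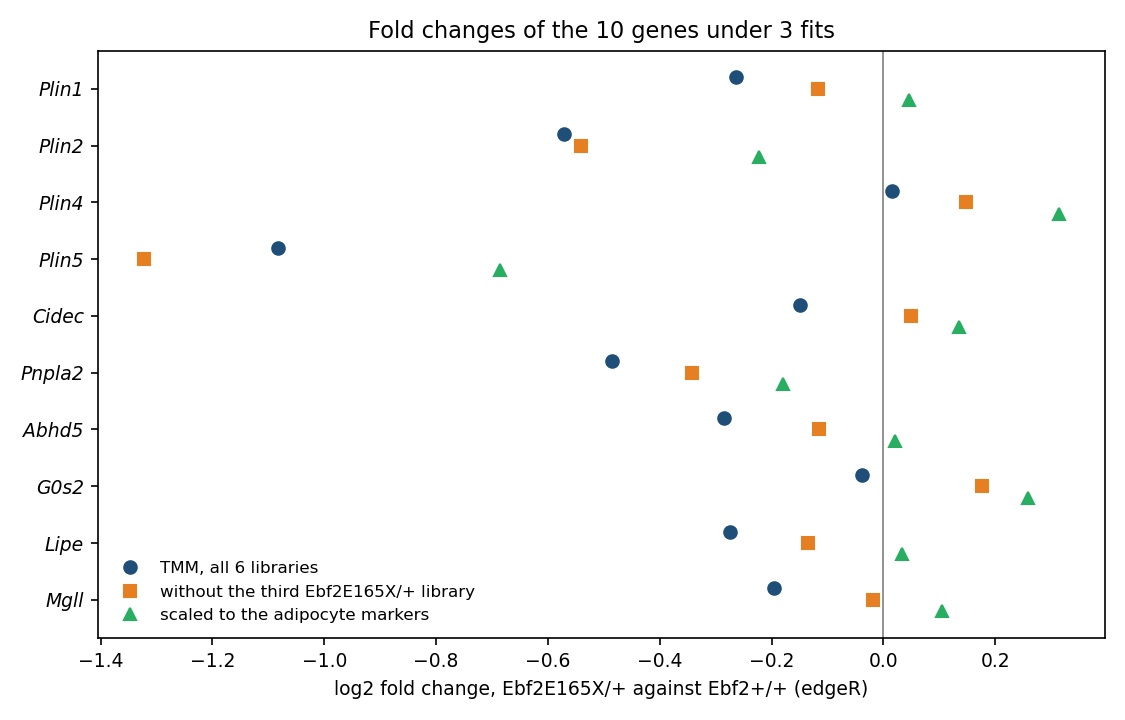
Log2 fold changes of the 10 genes by edgeR with TMM and all 6 libraries (circles), without the third *Ebf2E165X/+* library (squares), and with library sizes replaced by the adipocyte markers (triangles). *Plin5* lies at −1.08, −1.32, and −0.69, and 9, 7, and 3 of the 10 genes lie below 0.

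Ratios within a library do not depend on its scaling, so 10 ratios between functional partners were compared. The ratio of inhibitor to lipase, *G0s2* to *Pnpla2*, was 0.0837, 0.0753, and 0.0628 in *Ebf2+/+* and 0.0881, 0.133, and 0.0869 in *Ebf2E165X/+* IWAT. All *Ebf2E165X/+* libraries were higher, by 1.37-fold on average, with the second library far above the others and a two-sided exact permutation *P* of 0.1 (*n* = 3 per genotype), the smallest that 3 against 3 libraries can give. The log2 difference was 0.46, and 0.25 without the second *Ebf2E165X/+* library (exact permutation *P* = 0.2). The ratio of *Cidea* to *Cidec* was 0.119, 0.137, and 0.151 in *Ebf2+/+* and 0.00887, 0.0167, and 0.0291 in *Ebf2E165X/+* IWAT, 0.12-fold on average, without overlap and again with an exact *P* of 0.1. The ratio of *Plin5* to *Plin1* was 0.00957, 0.0105, and 0.0122 in *Ebf2+/+* and 0.00409, 0.00514, and 0.0101 in *Ebf2E165X/+* IWAT, 0.556-fold on average, with an exact *P* of 0.2. It overlapped through the third *Ebf2E165X/+* library, the library with the most muscle RNA. The log2 difference was −0.85, −1.22 without that library (exact permutation *P* = 0.1), and −0.57 without the first *Ebf2E165X/+* library.

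The other 7 ratios overlapped between genotypes, with average folds from 0.844 for *Plin2* to *Plin1* to 1.22 for *Plin4* to *Plin1* and exact *P* from 0.2 to 0.9. The log2 difference for *Plin2* to *Plin1* was −0.25, and ran from −0.52 without the second to −0.022 without the first *Ebf2+/+* library (−0.38 without the third *Ebf2E165X/+* library). That for *Plin4* to *Plin1* was 0.29, and ran from 0.12 without the first to 0.43 without the third *Ebf2+/+* library. The 7 ratios included *Plin1* to *Abhd5*, the coat protein and the coactivator it binds, at 1.03-fold, and *Mgll* to *Lipe*, the enzymes of the last steps, at 1.05-fold. The log2 difference for *Mgll* to *Lipe* was 0.069, and ran from 0.0088 without the first *Ebf2E165X/+* library to 0.12 without the first *Ebf2+/+* library. *Lipe* to *Pnpla2* was 1.17-fold, with a log2 difference of 0.23 that ran from 0.090 without the second to 0.36 without the first *Ebf2E165X/+* library. *Abhd5* to *Pnpla2* was 1.15-fold, with a log2 difference of 0.20, and 0.11 without the third *Ebf2+/+* library. After Benjamini-Hochberg adjustment over the 10 ratios, the adjusted exact *P* was at least 0.5 for each.

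**Figure D5:**
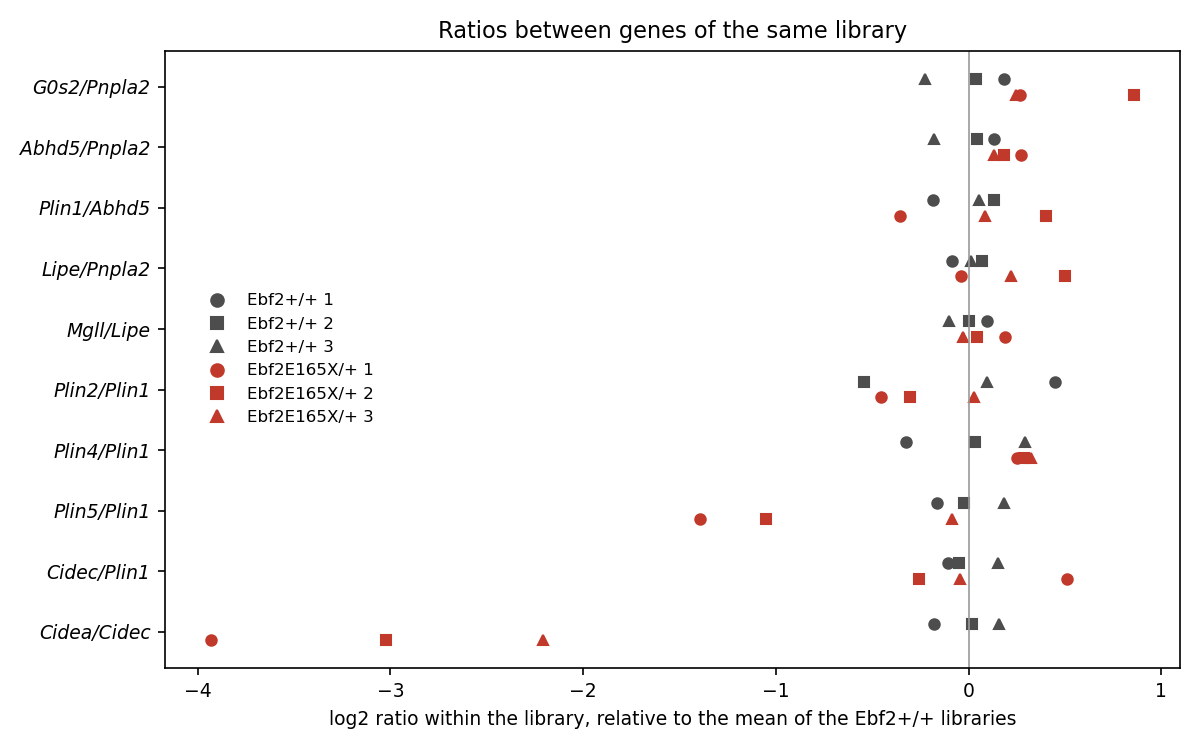
Log2 ratios between genes of the same library, each relative to the mean of the *Ebf2+/+* libraries, with *Ebf2+/+* in grey and *Ebf2E165X/+* in red and replicate numbers by marker shape. *G0s2/Pnpla2* and *Cidea/Cidec* are the 2 of the 10 rows in which red and grey points do not overlap.

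The remaining genes of droplet biology and lipolysis were read from 4 lists of 57 genes. The medians of these lists, which were below 0 with TMM, were above 0 when libraries were scaled to the adipocyte markers, at 0.22, 0.081, 0.24, and 0.073 in the order of the lists, and below the shift of all genes of 0.355. *Fabp4*, *Cd36*, and *Lpl*, which belong to the list for fatty acids and glycerol, are among the 8 markers that set this scaling, so that the median of that list is partly fixed by it. Of 15 other lipid droplet genes, 1, *Cidea*, was called lower by edgeR and 0 higher, with a median log2 fold change of −0.0995, and of −0.064 without the first *Ebf2+/+* library. At unadjusted *P* under 0.05 (edgeR), 3 were lower and 0 higher, beside 3.09% and 1.68% of all genes tested. Without the third *Ebf2E165X/+* or the first *Ebf2+/+* library 1 was lower, beside 3.54% and 2.24% of all genes tested. *Bscl2*, for seipin, which shapes nascent droplets, was measured at 220.5, 187, and 179 CPM in *Ebf2+/+* and at 174, 154, and 128 CPM in *Ebf2E165X/+* IWAT, without overlap (log2 fold change −0.36 ± 0.135, adjusted *P* = 0.783). *Cideb*, the CIDE gene of hepatocytes, was at or below 0.325 CPM in every library, with a log2 fold change of −0.78 ± 0.306 (edgeR, adjusted *P* = 0.783). *Fitm1*, a droplet gene of skeletal muscle, was measured at 41.1 CPM in the third *Ebf2E165X/+* library and at 0.929 to 7.5 CPM in the other 5.

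Of 12 other acylglycerol and ester lipases, 0 were called by edgeR and by DESeq2. At unadjusted *P* under 0.05 (edgeR), 4 were lower and 0 higher, beside 3.09% and 1.68% of all genes tested. Without the first *Ebf2+/+* library 1 was lower, beside 2.24% of all genes tested. The median log2 fold change was −0.23, and −0.13 without the third *Ebf2E165X/+* library. *Ces1d*, a carboxylesterase with triglyceride hydrolase activity, was measured at 600.4, 697, and 623 CPM in *Ebf2+/+* and at 505, 515, and 412 CPM in *Ebf2E165X/+* IWAT. The *Ces1d* levels did not overlap, and the log2 fold change was −0.42 ± 0.132 (edgeR, adjusted *P* = 0.783). *Ddhd2*, a phospholipase and triglyceride lipase, had a log2 fold change of −0.46 ± 0.165 without overlap, and *Pnpla3*, the closest relative of *Pnpla2*, −0.63 ± 0.238 with overlap through the second library of each genotype (edgeR, adjusted *P* = 0.783 for each).

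Of 20 genes for the hormonal control of lipolysis, 0 were called by edgeR and by DESeq2. At unadjusted *P* under 0.05 (edgeR), 3 were lower and 0 higher, beside 3.09% and 1.68% of all genes tested. The median log2 fold change was −0.081, and −0.029 without the third *Ebf2E165X/+* library. *Adora1*, for the adenosine receptor that restrains lipolysis, was measured at 72.6, 77.2, and 71.5 CPM in *Ebf2+/+* and at 55.1, 43.8, and 51.6 CPM in *Ebf2E165X/+* IWAT. The *Adora1* levels did not overlap, with a log2 fold change of −0.56 ± 0.0952 and an adjusted *P* of 0.377 by edgeR. By DESeq2 its adjusted *P* was under 0.05, as for 1.18% of genes, and its fold change below the threshold. *Adrb1*, for a beta adrenergic receptor, had a log2 fold change of −1.01 ± 0.307 at 1.69 to 5.36 CPM, and *Prkaca*, for the catalytic subunit of protein kinase A, −0.34 ± 0.107 without overlap (edgeR, adjusted *P* = 0.783 for each).

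Of 10 genes that handle the released fatty acids and glycerol, 0 were called by edgeR. All 10 had a log2 fold change below 0, as had 47.9% of all genes tested, and *Fabp4*, *Cd36*, and *Lpl* among them are also adipocyte markers. The median was −0.21 (−0.43 without the first *Ebf2E165X/+* library and −0.081 without the third). *Gk*, for glycerol kinase, was called by DESeq2 and not by edgeR (adjusted *P* = 0.377), and was measured at 13.5, 15.2, and 13.1 CPM in *Ebf2+/+* and at 9.24, 9.43, and 9.04 CPM in *Ebf2E165X/+* IWAT. The *Gk* levels did not overlap and were nearly alike within the *Ebf2E165X/+* genotype, with a log2 fold change of −0.59 ± 0.102. *Aqp7*, for the channel through which adipocytes release glycerol, had a log2 fold change of −0.23 ± 0.123, and *Fabp5*, for a fatty acid carrier, −0.55 ± 0.297 (edgeR, adjusted *P* = 0.783 for each).

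The 10 genes were set beside each other and beside all other genes over the 6 libraries. The pair of members with the most alike profiles was *Plin1* and *Lipe*, with a root mean square difference of 0.0801 on the log2 scale, and the least alike was *Plin5* and *G0s2*, at 0.916. Among 18895 other genes that reached 10 counts in all libraries, the profiles nearest to the mean of the 10 genes were those of *Tbx18*, a developmental transcription factor, *Gstz1*, an enzyme of tyrosine breakdown, and *Aco1*, the cytosolic aconitase, with root mean square differences of 0.0339, 0.0434, and 0.0452. *Tbx18* was measured at 10.8, 10.1, and 9.57 CPM in *Ebf2+/+* and at 9.41, 8.70, and 6.66 CPM in *Ebf2E165X/+* IWAT. Its lowest value was in the third *Ebf2E165X/+* library, as in the mean of the 10 genes to which it was matched.

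Markers of the cells in the tissue were read as shares of all counts. The 9 brown-like adipocyte markers, which include *Cidea* as the most abundant, took 0.0280 ± 0.00361% in *Ebf2+/+* and 0.0112 ± 0.00564% in *Ebf2E165X/+* IWAT (SD, *n* = 3; exact permutation *P* = 0.1, adjusted over 10 lists 0.25). Their share was 0.00756%, 0.00825%, and 0.0177% in the 3 *Ebf2E165X/+* libraries. In the third, the library with the most muscle RNA, *Cpt1b* at 71.6 CPM, *Cox7a1* at 21.7 CPM, and *Ppargc1a* at 14.7 CPM exceeded all *Ebf2+/+* libraries. *Cox8b* and *Dio2* lay within the *Ebf2+/+* range there, and *Ucp1*, *Cidea*, *Elovl3*, and *Kcnk3* below it. The part of muscle RNA in the share of the third library was not tested. The shares of macrophage, adipocyte progenitor, and B cell markers were higher in all *Ebf2E165X/+* libraries (exact *P* = 0.1 and adjusted *P* = 0.25 for each), with *Lyz2*, *Dcn*, and *Ms4a1* as their most abundant genes. Macrophage markers took 0.160 ± 0.0214% and 0.180 ± 0.00382%, progenitor markers 0.154 ± 0.019% and 0.178 ± 0.00924%, and B cell markers 0.0425 ± 0.0111% and 0.0552 ± 0.00572%, in *Ebf2+/+* and *Ebf2E165X/+* IWAT. Leaving out 1 *Ebf2+/+* library reduced these differences, from 0.0203 to 0.00824 percentage points for macrophage and from 0.0235 to 0.0128 for progenitor markers without the second, and from 0.0128 to 0.00634 for B cell markers without the first. On the mean log2 CPM of the list, which weights its genes equally, the macrophage and progenitor levels overlapped (exact permutation *P* = 0.7 and 0.6), while brown-like and B cell markers again did not (exact *P* = 0.1 for each). For adipocyte, muscle, endothelial, T cell, epithelial, and erythroid markers, led by *Lpl*, *Myh4*, *Pecam1*, *Lck*, *Krt5*, and *Hbb-bs*, the exact *P* of the shares ran from 0.3 to 0.9. Endothelial markers, with an exact *P* of 0.7 on shares, were lower in all *Ebf2E165X/+* libraries on mean log2 CPM, with a mean difference of −0.215 (exact permutation *P* = 0.1). Relative to the *Ebf2+/+* mean they were at −0.120, −0.0833, and −0.441 in *Ebf2E165X/+* libraries, the lowest in the third, and the second lay just below the lowest *Ebf2+/+* library, at −0.0774. The part of any of these cells in the values of the 10 genes was not tested.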

How the data were processed

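IWAT RNA of 6 mice was sequenced, each mouse as its own library. Expected counts per gene were deposited by the authors, that is, estimated numbers of fragments, without normalization. All 332946 values were whole numbers. The submitters' processing notes name cutadapt 4.8, FastQC 0.11.8, STAR 2.7.8a, RSEM 1.3.3, MultiQC 1.20, and GRCm38. The study's methods name QuantSeq 3′ libraries, while the labels name an NEB kit.

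The 32664 genes counted at least 1 time in a library were tested in edgeR 4.0.16 (R 4.3.3) with TMM factors and the quasi-likelihood test (legacy fit), genotype being the only term. Benjamini-Hochberg adjustment ran over the 32664 genes, and calls needed an adjusted *P* under 0.05 and a linear fold change above 1.5. Log2 CPM used a prior count of 2, and ratios a prior count of 0.5. Exact permutation tests were two-sided. In simulated counts with 200 genes changed by a log2 fold change of 2 among 31653 tested, edgeR recovered 164 and called 8 unchanged genes.

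Named genes were the 10 genes, every called gene and the 3 with the smallest *P* in each of 4 lists, *Cidea*, *Plin3*, *Ebf2*, the 3 nearest profiles, and the most abundant gene of each of 10 marker lists. *Lrg1*, *Hdgfl2*, *Lamb3*, *Fitm1*, *Fabp4*, *Cd36*, and the brown-like markers other than *Cidea* were chosen for naming after their values were seen, and *Ldaf1* is listed as *Tmem159*. The 10 genes and all lists were chosen with earlier results of these data known. Alternatives were DESeq2 1.42.0, limma-voom (limma 3.58.1), other scalings and filters, each library left out, and a replicate block. Positions, exon lengths, and overlaps are from GENCODE M21 on GRCm38, and promoters from RefSeq. Replicate numbers come from the labels, and nothing says whether mice shared litters.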

Additional observations from a re-analysis of the deposited data

How the results depend on the processing

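Among 176 comparisons of single genes with an alternative (the 10 genes and *Cidea*), 161 kept direction and side of the threshold, 13 reversed, 1 gained and 1 lost significance. By DESeq2, 98 genes and 1 of the 10 (*Plin5*) were called. Scaled to total counts only, 6 genes were called, 1 of the 10 had an unadjusted *P* under 0.05, and *G0s2* had a log2 fold change of 0.033. Scaled to the adipocyte markers, 5 genes were called, 0 of the 10 had an unadjusted *P* under 0.05, 1 was without overlap, and the median was 0.0397, with *Plin1* at 0.047, *Cidec* at 0.14, *Abhd5* at 0.020, *G0s2* at 0.26, *Lipe* at 0.033, and *Mgll* at 0.10, by construction an upward shift of all genes. The cause of the other changes was not tested. For neither of these scalings was the share of all genes at the same cuts counted, so these counts of the 10 genes have no background to be read against.

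With each library left out in turn, 1 (without the second *Ebf2+/+* library) to 11 genes (without the third *Ebf2E165X/+* library) were called. Of the 10 genes, 1 to 4 had an unadjusted *P* under 0.05, all lower, beside 2.24% to 3.54% of all genes, and 3 to 5 were without overlap, all below, beside 9.46% to 12% of all genes. The log2 fold change ran from −0.12 to 0.15 for *Plin4*, −0.47 to 0.049 for *Cidec*, and −0.19 to 0.18 for *G0s2*. The difference of log2 ratios ran from −0.14 to 0.24 for *Plin1* to *Abhd5* and −0.15 to 0.23 for *Cidec* to *Plin1*. The difference of marker shares, in percentage points, ran from −0.455 to 0.0306 for adipocytes, −0.181 to 1.62 for muscle, −0.0153 to 0.00114 for endothelium, and −0.0483 to 0.0942 for erythroid cells.

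With a replicate block, 2 genes and 0 of the 10 were called, and no other call changed. The labels tie libraries with the same number by that number only. Their deviations from the group means correlated at 0.153, −0.278, and −0.162 for numbers 1, 2, and 3, which does not settle whether mice shared a litter or day. An edgeR fit without the legacy option, chosen after seeing the data, called 3 genes and 0 of the 10. The effect of depth or of the number of mice on the calls was not tested.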
